A study of Saccharomyces cerevisiae with 4 samples.

Results

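The genes described here are 9 genes of arginine metabolism in the budding yeast S. cerevisiae: 5 of synthesis (ARG1, ARG3, ARG4, ARG8 and CPA1), 2 of breakdown (CAR1 and CAR2) and 2 regulators (ARG80 and ARG81). They were found by gene symbol in the platform annotation, where each of the 9 has 1 probe set, among 5449 S. cerevisiae genes in all. The members were chosen by pathway after the log2 value of ARG1 in wild type replicate 2 had been seen to be high, and the question was whether the rest of the pathway shares that value. Any figure for ARG1 that includes this array is therefore a description, and no test is claimed for it.

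Total RNA from 4 samples was measured on Affymetrix Yeast Genome 2.0 arrays, 2 of wild type (strain K699, mating type a) and 2 of a strain labelled as a WPL1 deletion (Y3501, MATa, wpl1∆::KAN). All were grown in rich YP medium with 2% glucose to an optical density (OD600) of 0.3 and harvested in exponential growth. Wpl1 is the yeast relative of Wapl, a protein that helps release the cohesin ring from chromosomes. In the labels, both arrays with replicate number 1 carry one date tag and both with number 2 another, so the replicates stand for 2 dates. Nothing in the labels states that cultures were separate, and p-values hold the spread of these arrays only, which may be technical.

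Yeast builds arginine from glutamate. Acetylated intermediates lead to ornithine inside the mitochondrion, and ornithine leaves for the cytosol, where carbamoyl phosphate and then aspartate are added to it. Synthesis genes are activated by Gcn4, the general activator of amino acid biosynthesis, and are repressed when arginine is plentiful by a complex of Arg80, Arg81, Mcm1 and Arg82. The same complex turns on CAR1 and CAR2, so synthesis and breakdown are classically regulated in opposite directions by arginine.

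Values are log2 expression values per probe set, as deposited. The array also carries 1746 named probe sets whose gene ID matched no S. cerevisiae gene. They were taken as those of the fission yeast S. pombe, without a further check of species. A gene was taken as above background where it exceeded their 95th percentile, which lay between 5.79 and 6.10. Of the 9 genes, 8 were above background in all 4 arrays, and ARG3 was above it in both replicate 2 arrays and in neither replicate 1 array. RAD61, the standard name of WPL1, was above background in both wild type arrays (6.43 and 6.55) and in neither deletion array (3.96 and 4.44). The a-cell markers MFA1, MFA2, STE2, STE6, BAR1 and AGA2 were above background in every array, 6 of 6, with a summed level on the log2 scale of 12.9 to 13.5. The alpha-cell markers summed to 8.34 to 8.76, with 2 or 3 of 4 above background and the receptor gene STE3 above it in no array. Chromosome IX genes stood apart in deletion replicate 2, at a median of 0.66 above wild type replicate 2 on the log2 scale, beside -0.11 for the other genes, and none of the 9 genes lies on that chromosome. Since double-stranded cDNA was labelled, a gene and an antisense transcript of it give signal that cannot be told apart.

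The high ARG1 value of wild type replicate 2 was shared by ARG3 and, to a smaller degree, by CPA1. ARG4 and ARG8 differed by 0.33 or less between the wild type arrays. In the deletion, replicate 2 was lower than replicate 1 for ARG1 (-0.68) and higher for CPA1 (0.30) and, as measured, ARG3 (0.62). AGP1, HIS4, EGT2, HUG1 and SNZ1, outside the 9 genes, were nearer to ARG1 over the 4 arrays than ARG3 and CPA1 were. For CAR1, CAR2 and ARG80 both replicate 2 arrays lay below both replicate 1 arrays, as for 46% of all genes. These 3 genes passed limma's test of replicate 2 against replicate 1 as lower, as did 13.2% of all genes. Fitted with all probe sets, the 3 calls were lost (limma adjusted p from 0.133 to 0.140). No gene passed the test between wild type and deletion, the deleted gene RAD61 included.

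ARG1 (YOL058W, chromosome XV) encodes argininosuccinate synthetase, which joins citrulline to aspartate. Its log2 values were 8.28 in wild type replicate 1, 10.52 in wild type replicate 2, 8.90 in deletion replicate 1 and 8.22 in deletion replicate 2. Wild type replicate 2 stood above the other 3 arrays, which lay within 0.7 of each other. The wild type difference, replicate 2 minus replicate 1, was 2.24 on the log2 scale, a 4.73-fold higher value in replicate 2, and the deletion difference was -0.68. Among the 5130 genes above background in both wild type arrays, ARG1 had the second-highest difference, after the serine synthesis gene SER3 at 2.28.

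ARG3 (YJL088W, chromosome X) encodes ornithine carbamoyltransferase, which makes citrulline. Its values were 5.12 in wild type replicate 1, 7.68 in wild type replicate 2, 5.76 in deletion replicate 1 and 6.38 in deletion replicate 2. Wild type replicate 2 was again the highest array, and both replicate 2 arrays lay above both replicate 1 arrays. Replicate 1 was not above background, so a bound is given: against the background limit of the replicate 1 array, wild type replicate 2 was at least 3.16-fold higher, and deletion replicate 2 at least 1.5-fold higher than deletion replicate 1. The measured differences were 2.56 and 0.62.

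CPA1 (YOR303W, chromosome XV) encodes the small subunit of the arginine-specific carbamoyl phosphate synthetase, and its own translation is repressed by arginine. Its values were 9.29 in replicate 1 and 10.49 in replicate 2 of wild type, and 9.60 and 9.90 in the deletion. The order of the arrays was that of ARG3, with wild type replicate 2 highest, at a smaller distance. The wild type difference of 1.21 corresponds to 2.31-fold, and the deletion difference was 0.30.

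ARG4 (YHR018C, chromosome VIII), the argininosuccinate lyase that follows ARG1 in the pathway, had values of 8.73 and 9.0 in wild type and 8.89 and 8.35 in the deletion, replicates 1 and 2 in that order. ARG8 (YOL140W, chromosome XV), the mitochondrial acetylornithine aminotransferase, had 8.23 and 8.55 in wild type and 8.33 and 8.06 in the deletion. For both genes wild type replicate 2 was the highest array and deletion replicate 2 the lowest, but the whole range was 0.65 for ARG4 and 0.49 for ARG8. Their wild type differences were 0.27 and 0.33, and their deletion differences -0.54 and -0.27.

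CAR1 (YPL111W, chromosome XVI) encodes arginase, which splits arginine into ornithine and urea. Its values were 9.47 and 8.85 in wild type and 9.75 and 8.98 in the deletion. CAR2 (YLR438W, chromosome XII), the ornithine transaminase of the next step, had 8.78 and 7.61 in wild type and 8.81 and 8.20 in the deletion. Both replicate 2 arrays lay below both replicate 1 arrays for each gene. Wild type replicate 2 was 1.53-fold lower than replicate 1 for CAR1 and 2.26-fold lower for CAR2, and in the deletion replicate 2 was 1.70-fold and 1.53-fold lower.

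ARG80 (YMR042W, chromosome XIII) encodes a MADS-box protein of the repressor complex. It had values of 7.71 and 7.01 in wild type and 7.52 and 6.59 in the deletion, so replicate 2 was lower in both genotypes, by 1.62-fold and 1.91-fold. ARG81 (YML099C, chromosome XIII), the zinc-cluster protein of the complex that senses arginine, had 7.05 and 7.63 in wild type and 7.22 and 7.30 in the deletion. The 2 regulators thus lay on opposite sides, ARG80 lower and ARG81 higher in replicate 2, with the ARG81 difference of 0.08 in the deletion close to 0.

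**Figure D1:**
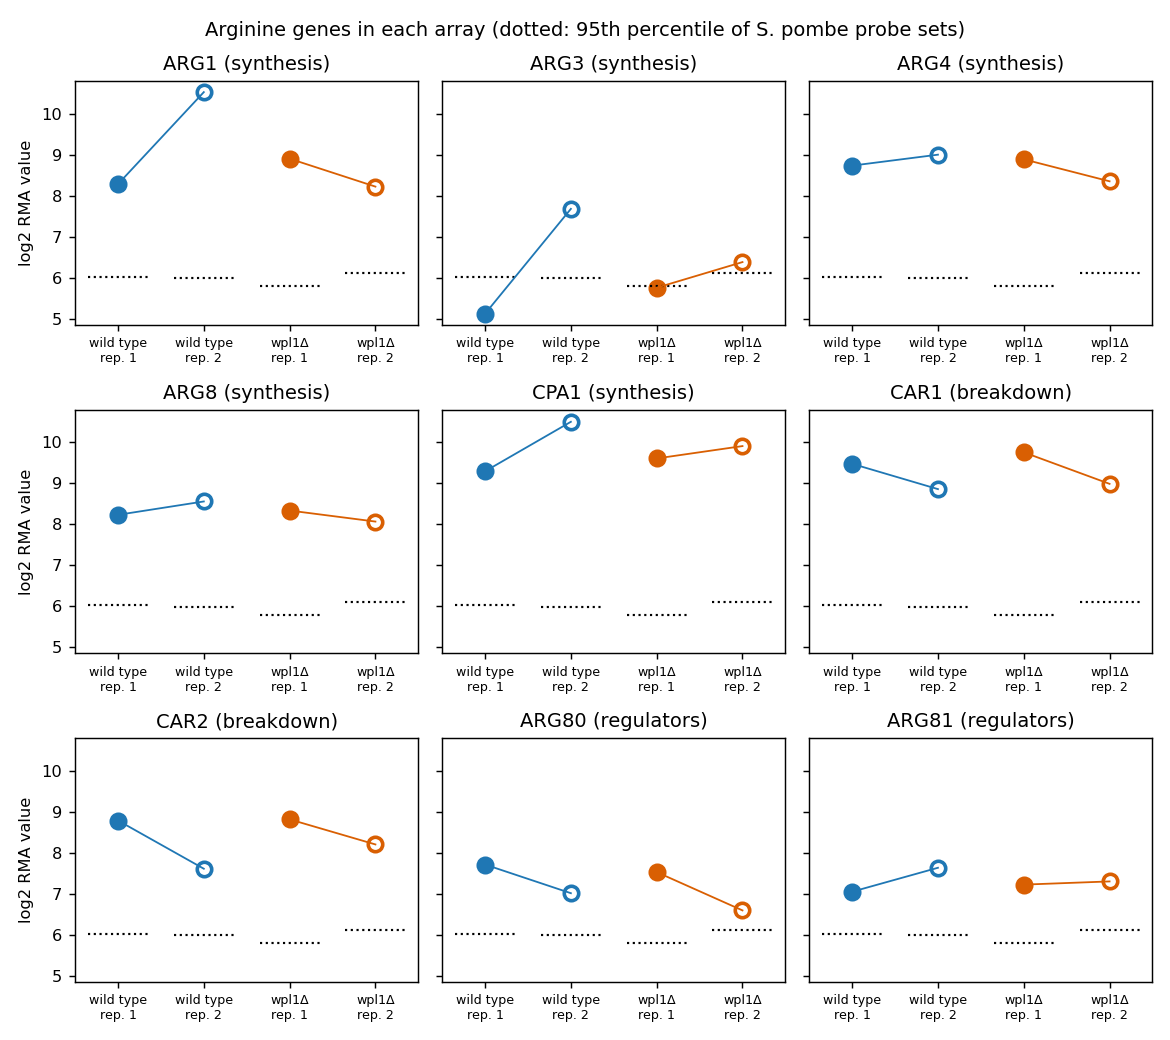
Log2 expression value (vertical axis) of the 9 arginine genes in the 4 arrays, wild type in blue and the deletion in orange, replicate 1 filled and replicate 2 open. Each point is 1 array, and dotted lines mark that array's background limit, the 95th percentile over the probe sets taken as S. pombe. ARG1 (10.52), ARG3 (7.68) and CPA1 (10.49) are highest in wild type replicate 2, while CAR1, CAR2 and ARG80 are lower in replicate 2 of both genotypes.

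With 1 array a side, the wild type difference has no test, and a log2 difference of 1 or more was used to count genes. Over all genes, 3.27% were higher in wild type replicate 2 by that much and 2.95% were lower. Of the 9 arginine genes, 3 were higher (ARG1, picked for it, ARG3 and CPA1) and 1 was lower (CAR2). In the deletion, 1.63% of genes were higher and 4.33% lower by the same measure, and 0 of the 9 arginine genes were in either class. The median wild type difference was 1.21 over the 5 synthesis genes and -0.90 over CAR1 and CAR2, beside -0.07 over all genes. In the deletion these medians were -0.27 and -0.69, beside -0.20 over all genes. Without ARG1, which was picked for its wild type value, the other 4 synthesis genes had a median of 0.77 in wild type and of 0.02 in the deletion, so the sign of the deletion median rests on ARG1. List medians hold genes below background at their measured values.

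The median of all genes was itself shifted between replicates, so values relative to it were also formed. Relative to the gene median, the wild type differences were 2.31 for ARG1, 1.28 for CPA1, 0.34 for ARG4 and 0.39 for ARG8. The deletion differences were -0.48, 0.50, -0.34 and -0.07 in the same order. ARG3 was at a measured 2.62 and 0.82, with replicate 1 at background, so its size is not set by these values. CAR1 and CAR2 were at -0.55 and -1.11 in wild type and -0.57 and -0.41 in the deletion, and ARG80 at -0.63 and -0.73. No direction of the 9 genes turned in either genotype with arrays centred on the gene median or quantile normalized over the genes.

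**Figure D2:**
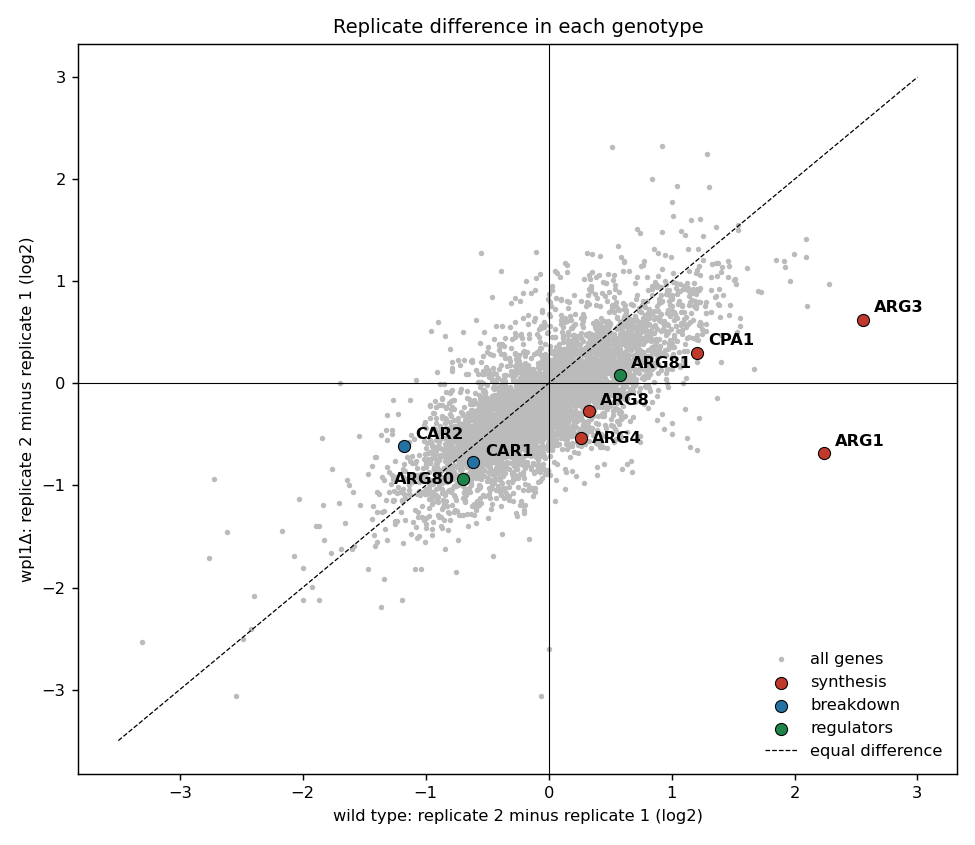
Replicate 2 minus replicate 1 in wild type (horizontal axis, log2) against the same difference in the deletion (vertical axis, log2); grey points are all 5449 genes, coloured points the 9 arginine genes by role, and the dashed line marks equal differences. ARG1 lies at 2.24 and -0.68 and ARG3 at 2.56 and 0.62, both far to the right of the line, whereas CAR1 and ARG80 lie near it.

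The replicate difference averaged over the 2 genotypes was tested with limma, with genotype as a term in the model and p-values adjusted over all genes by Benjamini-Hochberg. In this fit 6.15% of all genes were higher in replicate 2 and 13.2% lower, at an adjusted p under 0.05. Of the 9 arginine genes, 0 were higher and 3 were lower. ARG80 fell by 0.82 on the log2 scale (SE 0.15, limma adjusted p = 0.0307), CAR2 fell by 0.89 (SE 0.19, limma adjusted p = 0.0387) and CAR1 fell by 0.69 (SE 0.14, limma adjusted p = 0.0375). Each had both replicate 2 arrays below both replicate 1 arrays, as had 46% of all genes. With all 10928 probe sets in the fit, every call of this comparison ended, those of these 3 genes included.

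ARG3 and CPA1 did not pass. The measured ARG3 difference was 1.59 (SE 0.45, limma adjusted p = 0.0633), and as a bound replicate 2 was at least 2.18-fold higher. CPA1 had a difference of 0.75 (SE 0.24, limma adjusted p = 0.0834) and ARG81 0.33 (SE 0.18, limma adjusted p = 0.225). After each array was centred on its gene median, ARG3 and CPA1 passed, at limma adjusted p = 0.0137 and 0.0188. In that setting 775 genes in all were called higher, against 335 in the main fit. For ARG4 and ARG8 the difference over both genotypes was -0.13 (SE 0.22) and 0.03 (SE 0.19), and for ARG1 it was 0.78 (SE 0.66), which averages opposite values in the 2 genotypes.

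Both replicate 2 arrays lay above both replicate 1 arrays for 3 of the 9 genes (ARG3, CPA1 and ARG81), against 23.4% of all genes. They lay below for 3 of the 9 (CAR1, CAR2 and ARG80), against 46% of all genes. Wild type replicate 2 was the highest of the 4 arrays for 6 of the 9 genes, all 5 synthesis genes and ARG81, against 29.9% of all genes. ARG1 had been picked for this and counts toward the 6. Higher in replicate 2 of wild type and lower in replicate 2 of the deletion were 3 of the 9 (ARG1, ARG4 and ARG8), beside 17.6% of all genes.

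The difference of differences, the wild type value minus the deletion value, measures how far the replicate difference of the 2 genotypes lay apart. It has no residual degree of freedom in 4 arrays and no test. It was 2.92 for ARG1, 0.90 for CPA1, 0.80 for ARG4 and 0.59 for ARG8, and its measured value for ARG3, which includes arrays at background, was 1.93. All 5 synthesis genes were above 0, as were 66.9% of all genes, whose median was 0.13. CAR1 had 0.15, CAR2 -0.56, ARG80 0.24 and ARG81 0.51. Of the 9 genes, 2 (ARG1 and ARG3) were at 1 or more, beside 1.12% of all genes, and 0 were at -1 or less, beside 0.679%. ARG1 had been picked for its wild type replicate 2 value, which enters this measure. Its place in the count and its rank are therefore a description. Among the 5039 genes above background in all 4 arrays, ARG1 ranked second, after YCL021W-A at 3.01. That gene was singled out after its values were seen. It lay between 9.25 and 9.38 in 3 arrays and at 6.31 in deletion replicate 2, so its rank came from a low deletion array and that of ARG1 mostly from a high wild type array.

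The comparison the study was designed for is deletion against wild type. In limma without a replicate block, 0% of genes passed in the higher direction and 0% in the lower one, while 5 each way had an unadjusted p under 0.05. The block on replicate number also left 0 genes past the adjusted threshold (0% each way), with 83 above and 73 below wild type before adjustment. An exact permutation test of 2 arrays against 2 cannot give a two-sided p below 0.333. Of the 9 arginine genes, 0 passed in either direction. RAD61, the deleted gene, did not pass either, at -2.29, with limma adjusted p = 0.141 in the fit with the block. The lack of a call therefore does not show that a gene was unchanged.

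The 2 wild type arrays gave ARG1 a mean of 9.40 ± 1.59 (SD, n = 2), and the 2 deletion arrays 8.56 ± 0.48 (SD, n = 2), a difference of -0.84 (SE 0.73). Without wild type replicate 1, ARG1 was at -1.96 and past limma's threshold, but that value rests on the array ARG1 was picked for and is no test. Without wild type replicate 2 the sign turned, to 0.28. For CPA1 the means were 9.89 ± 0.85 (SD, n = 2) and 9.75 ± 0.21 (SD, n = 2), a difference of -0.14 (SE 0.43). ARG4 differed by -0.25 (SE 0.29) and ARG8 by -0.19 (SE 0.26). ARG3, above background in 1 of 2 arrays of each genotype, had a measured difference of -0.33 (SE 0.81). CAR1 and CAR2 differed by 0.20 (SE 0.37) and 0.31 (SE 0.45), and ARG80 and ARG81 by -0.30 (SE 0.41) and -0.08 (SE 0.29). The groups overlapped for all 9 genes, whereas the 2 deletion arrays lay above both wild type arrays for 5.32% of all genes and below them for 8.61%.

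Within replicate numbers the synthesis genes lay on opposite sides. In replicate 1 the deletion was above wild type for all 5, by 0.62 for ARG1, 0.31 for CPA1, 0.15 for ARG4 and 0.10 for ARG8, and by a measured 0.63 for ARG3, which was at background in both arrays. None of the 9 reached 1 in either direction in replicate 1, as 0.11% of all genes did upward and 0.0367% downward. In replicate 2 the deletion was below wild type for all 5, with -2.30 for ARG1, -1.30 for ARG3, -0.59 for CPA1, -0.65 for ARG4 and -0.49 for ARG8. In replicate 2, 2 of the 9 (ARG1 and ARG3) were at -1 or less, beside 0.385% of all genes. At 1 or more were 0 of the 9, beside 0.477%. ARG1 had been picked for its wild type replicate 2 value, which enters this difference, so it counts by that choice. Over all genes the share above 0 also fell, from 59.8% in replicate 1 to 34.4% in replicate 2. The share of genes above 0 in replicate 1 and below it in replicate 2 was not counted. The median of all genes was 0.04 in replicate 1 and -0.10 in replicate 2. CAR1 was above 0 in both replicates (0.28 and 0.13), as was CAR2 (0.03 and 0.59), and ARG80 was below 0 in both (-0.18 and -0.42). Relative to the gene median, CAR2 in replicate 1 was at -0.01, so its sign there rests on the scaling.

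**Figure D3:**
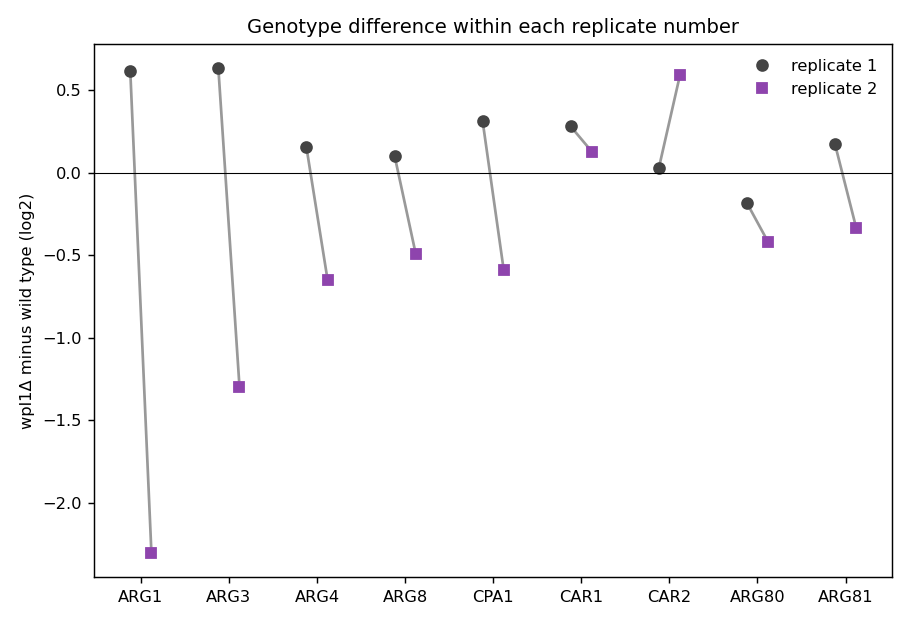
Deletion minus wild type (vertical axis, log2) for each of the 9 arginine genes, as circles for replicate 1 and squares for replicate 2; 1 point is the difference of 2 arrays. The 5 synthesis genes lie above 0 in replicate 1 and below 0 in replicate 2, where ARG1, picked for its wild type replicate 2 value, reaches -2.30. Of all genes, 59.8% lie above 0 in replicate 1 and 34.4% in replicate 2.

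Other genes of arginine metabolism were described beside the 9. Of the 4 other synthesis genes listed, 3 could be named on the array, and all 3 were above background in every array. ARG7, the ornithine acetyltransferase, had values of 8.85 and 9.29 in wild type and 9.10 and 8.48 in the deletion. ORT1, the mitochondrial ornithine exporter, had 6.98 and 7.40 in wild type and 7.82 and 7.20 in the deletion. Both had the pattern of ARG4 in sign, higher in wild type replicate 2 (by 0.44 and 0.42) and lower in deletion replicate 2 (by -0.62 and -0.62). ARG2, the acetylglutamate synthase of the first step, had wild type and deletion differences of -0.06 and -0.28. None of the 3 passed either limma test.

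Of the 4 other regulators, ARG82, the inositol polyphosphate kinase of the repressor complex, was not above background in any array. MCM1, the MADS-box partner of Arg80 and its neighbour on chromosome XIII, was at 10.44 and 10.38 in wild type and 10.32 and 10.24 in the deletion. Its replicate difference over both genotypes was -0.07 (SE 0.14), beside -0.82 for ARG80. GCN4 had 11.76 and 12.35 in wild type and 11.74 and 11.91 in the deletion, highest in wild type replicate 2 like the synthesis genes, with a replicate difference of 0.38 (SE 0.17, limma adjusted p = 0.151). UME6, which represses CAR1, had differences of 0.09 and -0.42. None of the 4 passed either limma test.

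For arginine uptake, the general amino acid permease gene GAP1 had 9.50 and 10.38 in wild type and 9.64 and 9.82 in the deletion, the order of CPA1. CAN1, the arginine permease, had wild type and deletion differences of 0.14 and -0.26, and VBA2, a vacuolar transporter of basic amino acids, 0.15 and -0.21. ALP1, a relative of CAN1, was not above background in any array. None of the 4 passed either limma test.

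Of 9 listed genes of urea and proline metabolism and uptake, 8 were named on the array. In the limma test of replicates 1 of the 8 passed, as lower in replicate 2, beside 13.2% of all genes. PRO3, the reductase that turns the product of Car2 into proline, was at 10.52 and 9.51 in wild type and 10.63 and 9.55 in the deletion. It fell by 1.05 in replicate 2 (SE 0.14, limma adjusted p = 0.0258), alongside CAR1 and CAR2. The other 7 did not pass. PUT3, the activator of proline use, had replicate differences of 0.83 in wild type and 0.45 in the deletion, and the proline permease PUT4 0.28 and 0.68. PRO1 had -0.29 and -0.87, PRO2 0.17 and -0.11, PUT1 0.03 and -0.33, and PUT2 -0.10 and -0.02. The urea transporter DUR3 was above background in wild type replicate 1 alone.

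Of 44 other amino acid biosynthesis genes under Gcn4, 43 were measured. In wild type 28 of 43 were higher in replicate 2, beside 44.2% of all genes, and their median difference was 0.10, beside -0.07. In the deletion 9 of 43 were higher, beside 32.2% of all genes, and the median was -0.32, beside -0.20. The difference of differences had a median of 0.36 and was above 0 for 37 of 43, beside 0.13 and 66.9% for all genes. Without the 5 genes on chromosome IX it had a median of 0.40 and was above 0 for 36 of 38. At 1 or more were HIS4 at 1.52, SER3 at 1.31, LYS9 at 1.26, LEU1 at 1.10 and BAT1 at 1.04, against 2.92 for ARG1. LYS9, LEU1 and BAT1 were named after their values were seen.

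The largest wild type differences of the Gcn4 genes were those of SER3 (2.28), HIS5 (1.54), HIS4 (1.37) and GLN1 (-0.83). SER3, of serine synthesis, was at 6.85 and 9.13 in wild type and 6.99 and 7.96 in the deletion. HIS5, of histidine synthesis and on chromosome IX, was at 8.58 and 10.12 in wild type and 8.49 and 10.04 in the deletion, equal within 0.1 between genotypes. HIS4, also of histidine synthesis, was at 8.78 and 10.15 in wild type and 9.14 and 8.99 in the deletion, high in wild type replicate 2 alone. In the limma test of replicates, 3 of the 43 genes were higher and 3 lower, beside the 6.15% and 13.2% of all genes. Without chromosome IX, 1 of 38 was higher and 3 were lower. Among the calls were HIS5 at 1.54 (adjusted p = 0.0258), SER3 at 1.62 (adjusted p = 0.0349) and the glutamine synthetase gene GLN1 at -0.90 (adjusted p = 0.027). They had been named for their wild type difference, which enters the tested value, so that choice favoured their passing. HIS4 had 0.61 (SE 0.36) and did not pass.

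**Figure D4:**
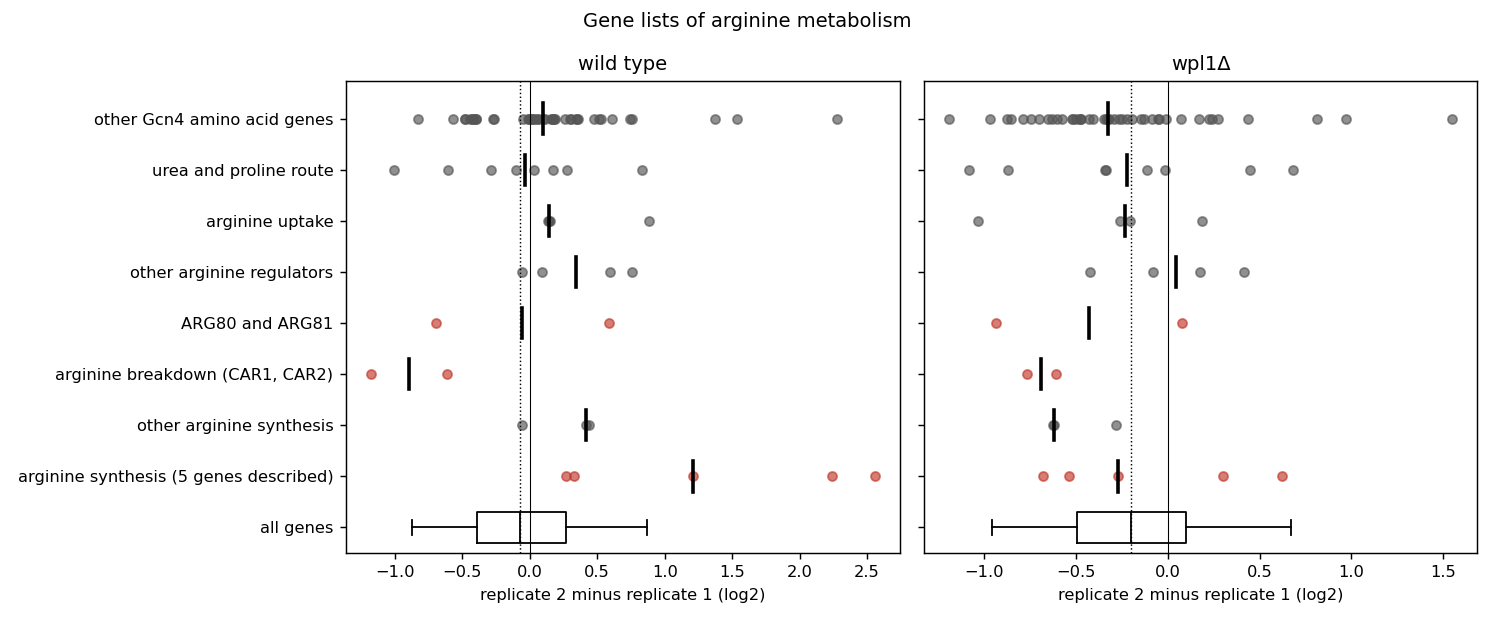
Replicate 2 minus replicate 1 (horizontal axis, log2) in wild type (left) and the deletion (right) for lists of genes; 1 point is 1 gene, red for the 9 arginine genes and grey for others, and short bars are list medians. The box gives the quartiles of all genes, with whiskers at the 5th and 95th percentile, and dotted lines their median (-0.07 and -0.20); the synthesis genes without ARG1, which was picked for its wild type value, have medians of 0.77 and 0.02, and 1.21 and -0.27 with it (the bars drawn).

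Likeness to ARG1 was measured as the root mean square difference between profiles over the 4 arrays, each gene centred on its own mean. The 5 nearest genes outside the 9 were AGP1 at 0.42, HIS4 at 0.42, EGT2 at 0.48, HUG1 at 0.51 and SNZ1 at 0.52. Of the 9 arginine genes, ARG3 was nearest at 0.54, followed by CPA1 at 0.61, and CAR2 was farthest at 1.34. AGP1, a permease for several amino acids, had values of 9.13 and 10.28 in wild type and 9.49 and 8.87 in the deletion, with wild type replicate 2 highest and deletion replicate 2 lowest. EGT2, of daughter cell separation, was at 10.53 and 11.63 in wild type and 10.80 and 10.54 in the deletion. HUG1, an inhibitor of ribonucleotide reductase, had 6.77 and 7.66 in wild type and 6.84 and 6.48 in the deletion, and SNZ1, of vitamin B6 synthesis, 7.93 and 9.05 in wild type and 8.04 and 8.09 in the deletion. Their wild type differences of 0.88 to 1.37 were all smaller than that of ARG1, which had been picked for its wild type replicate 2 value. A measure over 4 arrays is a description only.

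**Figure D5:**
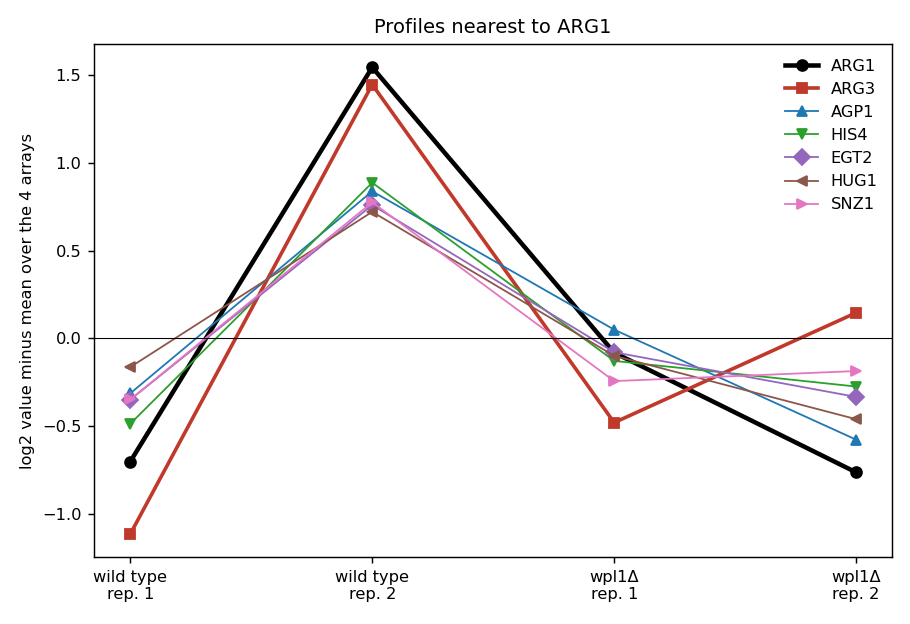
Log2 value minus the gene's mean over the 4 arrays (vertical axis) in each array for ARG1, ARG3 and the 5 genes with the nearest profile; lines join the arrays of 1 gene and mark no order. That the 5 nearest genes are highest in wild type replicate 2 is fixed by their choice. Their wild type differences of 0.88 to 1.37 are smaller than the 2.24 of ARG1, which was picked for its wild type replicate 2 value. Of the 7 genes drawn, ARG3 alone lies above 0 in deletion replicate 2.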

How the data were processed

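The deposited log2 values come from RMA in the affy package according to the submitters' processing notes, with no version named in the sources used here. RMA corrects background, quantile-normalizes the arrays and summarises each probe set, so differences are relative to other transcripts. Sample titles gave the groups and replicate numbers. The annotation gave 7244 of 10928 probe sets 1 symbol, 3683 none and 1 several. By gene ID, 5498 belonged to S. cerevisiae genes of NCBI's table for assembly R64, and probe sets of 47 genes were averaged. Tests used limma 3.58.1 in R 4.3.3 (lmFit, eBayes, two-sided) with Benjamini-Hochberg adjustment over 5449 genes, and the code was tested on simulated data.

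The genotype fit leaves 2 residual degrees of freedom, and 1 with the replicate block. The replicate fit with its genotype term likewise leaves 1. The date tags in the labels pair same-numbered arrays, whose deviations from the group means correlated with r = 0.747 across genes. The number of arrays limits the precision. The members and lists were chosen with earlier results of these data known. Named were the 9 genes, RAD61, the arginine lists, the 4 other Gcn4 genes with the largest wild type difference and the 5 profiles nearest to ARG1. ARG5,6, DUR1,2 and TRP1 had no probe set named in the annotation and were not analysed here. Alternatives were all probe sets, the brightest probe set, dim genes removed, the replicate block, centring, quantile normalization over genes, a trended robust prior, dropping the genotype term and leaving out each array. Counts without chromosome IX were added later.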

Additional observations from a re-analysis of the deposited data

Results flagged for a closer look

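Of the 9 arginine genes and the genes of the arginine lists, 26 were above background in at least 1 array. In 10 of these 26 (38.5%) the replicate difference had opposite signs in the 2 genotypes, higher in wild type replicate 2 and lower in deletion replicate 2, as in 17.6% of all genes. With 1 array a side, no difference between genotypes was tested. The genes were ARG1, picked for its wild type value, with a difference of differences of 2.92, ARG4 with 0.80 and ARG8 with 0.59. The other synthesis genes ARG7 and ORT1 had 1.06 and 1.04. Smaller values were found for UME6 (0.51), CAN1 (0.40), PUT1 (0.37), VBA2 (0.35) and PRO2 (0.28), beside a median of 0.13 over all genes. Relative to the gene median, PRO2 had the same sign in both genotypes (0.24 and 0.09), and VBA2 was at 0.22 in wild type and -0.0080 in the deletion, so both rest on the scaling.

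Of the 43 other Gcn4 genes, 21 had these opposite signs, and 17 relative to the gene median, as in 10.9% of all genes. Those named were HIS4 (1.52), LYS9 (1.26), LEU1 (1.10) and BAT1 (1.04), and HIS4 had the same sign in both genotypes relative to the gene median. AGP1 (1.77), EGT2 (1.36) and HUG1 (1.24) also had opposite signs, and they had been chosen for profiles like that of ARG1.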

How the results depend on the processing

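Only 2 arrays a genotype limit the genotype comparison. Leaving out 1 array in turn, the genotype difference ran from -1.96 to 0.28 for ARG1, -1.61 to 0.95 for ARG3, -0.52 to 0.020 for ARG4, -0.36 to -0.03 for ARG8, -0.74 to 0.46 for CPA1, -0.18 to 0.59 for CAR1, -0.28 to 0.90 for CAR2, -0.77 to 0.17 for ARG80 and -0.37 to 0.21 for ARG81. The sign thus turned for 8 of the 9, ARG8 being the exception. Counts of genes called ran from 0 to 1 higher and 0 to 2 lower. They were RAD61 and, without wild type replicate 1, ARG1 and FRE7. With the replicate block, 0 genes passed in either direction, and no call changed.

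The replicate comparison called 335 genes higher and 721 lower, and 0 and 0 with all probe sets in the fit. Centring raised the higher calls to 775 and quantile normalization to 748, and the share of calls that were higher from 31.7% to 48.4% and 51.1%. ARG3 also passed without a genotype term (limma adjusted p = 0.0413), with a trended robust prior (0.0466) and with quantile normalization (0.0189), where CPA1 (0.024) and ARG81 (0.0477) passed too. Higher calls over all genes were 477 without the genotype term and 425 with that prior. Deletion differences of 1 or more went from 89 higher and 236 lower genes to 170 and 119 with centring and to 168 and 105 with quantile normalization, and the higher count to 53 without chromosome IX. For the difference of differences, 61 higher and 37 lower genes became 33 and 63 with centring and 30 and 58 with quantile normalization, and the lower count 15 without chromosome IX. The counts without chromosome IX are over fewer genes; the cause of the other changes was not tested.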
